A study of Mus musculus with 12 samples.

Results

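The genes described here carry the autonomic signal that makes a salivary gland secrete. They are 9 of the 56065 genes in the count table: the receptors Chrm1, Chrm3, Adra1a, Adrb1 and Vipr1, the calcium release channels Itpr2 and Itpr3, and the calcium entry genes Stim1 and Orai1. They were listed by symbol for their roles in this signal and matched to the table through the Ensembl identifiers of the Gencode mouse annotation. All 9 passed the filter on low counts, so no member is left out.

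Parasympathetic nerves release acetylcholine onto muscarinic receptors, which act through Gq and phospholipase C to make inositol trisphosphate. Inositol trisphosphate opens its receptor channels on the endoplasmic reticulum, calcium enters the cytosol, and chloride and water follow into the saliva; STIM1 senses the emptied store and opens ORAI1 in the plasma membrane. Sympathetic noradrenaline reaches the same calcium through alpha-1 receptors, while beta-1 receptors and receptors for vasoactive intestinal peptide raise cAMP, which drives the release of stored protein.

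Bulk RNA-seq was done on submandibular glands (SMGs) of 8-week-old mice, with 3 mice in each of 4 groups: C57BL/6J wild type of each sex, and C57BL/6J-Pou2f3-/- knockout of each sex. Pou2f3 encodes the transcription factor that tuft cells (TCs), rare chemosensory cells of the ducts, need in order to form. The knockout is global, so every cell of the animal lacks the gene, and each library is a whole gland rather than a sorted cell type. The question was how loss of TCs bears on the gland in each sex. Because the tissue is bulk, fewer cells of a type and less RNA per cell cannot be told apart.

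The 12 libraries held 47032175 to 67882207 estimated counts, and a count of 3 corresponds to 0.0399 to 0.0781 CPM, which are counts scaled to library size with TMM factors and the unit of every level given here. The non-coding RNA Rn7s1 held 27 to 39.1% of the counts in female libraries and 11.8 to 26.9% in male ones. TMM factors were 0.625 to 0.759 in wild-type females, 0.902 to 1.03 in knockout females and 1.04 to 1.45 in males. The part of this make-up in the members' differences was not tested. Pou2f3 itself had 0 to 2 counts in wild-type females, 0 to 10 in wild-type males, 0 in knockout females and 0 to 3 in knockout males, so at this depth it did not check the genotype labels. Granular convoluted tubule markers, the male-type duct cells of the mouse SMG, summed to 71722 to 131731 CPM in wild-type males and 944 to 1679 CPM in wild-type females, as the sex labels state. Acinar markers summed to 50312 to 59155 CPM for females of the wild type and 30816 to 37824 for those of the knockout, and to 12031 to 20301 against 11727 to 14383 for the corresponding males. In markers of the neighbouring sublingual gland, Muc19 among them, 2 libraries stood apart, at 5908 CPM in knockout female 3 and 9063 CPM in wild-type male 3. The other libraries were at 3.51 to 240.4 CPM. Values without these 2 sublingual-marked libraries are given beside each result of a member, and of a named list gene, that lost its call or changed sign. Adipocyte markers summed to 41.6 CPM in wild-type female 3 and to 32.0 and 15.5 CPM in knockout males 2 and 3. Elsewhere they summed to 1.42 to 5.77 CPM. Knockout males 2 and 3 also had macrophage markers at 108 and 101 CPM and fibroblast markers at 604 and 488 CPM. Knockout male 1 had 62.8 and 356 CPM. Macrophage markers reached 123 CPM in wild-type female 1. Every member except Orai1 was lower in knockout males 2 and 3 than in knockout male 1, Adrb1 only slightly (28.9 and 29.2 against 29.9 CPM). The part of these markers was not tested. Nerve and ganglion markers summed to only 0.180 to 4.07 CPM in every library, so the receptors were read in gland tissue with very little neuronal RNA.

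On chromosomes of GRCm39, the receptors lie at chr19:8640962-8662278 (Chrm1, plus strand), chr13:9925522-10410883 (Chrm3, minus), chr14:66872700-67012152 (Adra1a, plus), chr19:56710631-56721545 (Adrb1, plus) and chr9:121471775-121502020 (Vipr1, plus). The calcium genes lie at chr6:146009797-146403721 (Itpr2, minus), chr17:27275971-27343866 (Itpr3, plus), chr7:101916979-102086526 (Stim1, plus) and chr5:123153043-123168535 (Orai1, plus). All are protein-coding, and the counts cover whole genes with all their annotated transcripts.

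The promoters of 4 members are shown to set calcium genes that were higher in wild-type males, Itpr2, Stim1 and Orai1, beside a receptor that was lower there, Chrm3. Each run is the 250 bases before the annotated start, 5′ to 3′ on the strand of the gene, from RefSeq on GRCm38.p6, an older build than that of the counts: chr6:146502224-146502473 for Itpr2 (minus), chr7:102267569-102267818 for Stim1 (plus), chr5:123014824-123015073 for Orai1 (plus) and chr13:10360804-10361053 for Chrm3 (minus). Capitals mark the GC box GGGCGG or its reverse complement CCGCCC.
Itpr2: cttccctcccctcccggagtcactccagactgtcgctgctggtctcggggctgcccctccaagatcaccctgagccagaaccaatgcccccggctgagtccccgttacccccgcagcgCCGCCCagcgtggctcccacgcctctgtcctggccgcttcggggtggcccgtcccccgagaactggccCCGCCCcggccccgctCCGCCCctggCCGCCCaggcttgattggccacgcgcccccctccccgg
Stim1: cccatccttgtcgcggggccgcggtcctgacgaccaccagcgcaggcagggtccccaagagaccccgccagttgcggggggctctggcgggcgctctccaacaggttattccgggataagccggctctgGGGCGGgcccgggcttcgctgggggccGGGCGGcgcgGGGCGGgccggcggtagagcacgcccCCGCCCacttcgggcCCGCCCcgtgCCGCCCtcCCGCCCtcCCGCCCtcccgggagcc
Orai1: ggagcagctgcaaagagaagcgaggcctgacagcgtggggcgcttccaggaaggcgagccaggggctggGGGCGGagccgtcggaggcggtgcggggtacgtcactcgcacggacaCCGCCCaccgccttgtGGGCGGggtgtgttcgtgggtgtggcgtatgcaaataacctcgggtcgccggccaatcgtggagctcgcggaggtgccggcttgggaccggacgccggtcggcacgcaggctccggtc
Chrm3: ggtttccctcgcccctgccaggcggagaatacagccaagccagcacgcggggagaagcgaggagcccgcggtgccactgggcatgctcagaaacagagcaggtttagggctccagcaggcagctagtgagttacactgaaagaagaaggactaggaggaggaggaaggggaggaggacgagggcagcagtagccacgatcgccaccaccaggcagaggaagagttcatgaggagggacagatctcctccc

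The GC box occurs 4 times before Itpr2, 8 times before Stim1, 3 times before Orai1 and 0 times before Chrm3; Vipr1 has 3, and Adrb1 and Itpr3, both lower in wild-type males, have 1 each. Of 27025 mouse promoters of this length, 32.9% hold at least 1. The promoters were rich in G and C, with 74.4% in Itpr2, 78.4% in Stim1, 70.8% in Orai1 and 61.2% in Chrm3, against a median of 52.0% over all promoters. The steroid receptor half-site AGAACA, searched on both strands because androgen shapes the male mouse SMG, was in none of these windows, nor in those of Adrb1, Vipr1 and Itpr3, and 16.2% of all promoters hold it. The cAMP response element TGACGTCA, held by 1.62% of promoters, and the TATA box TATAAA, held by 13.0%, were also in none of the 7 windows. RefSeq entries were matched for 7 of the 9 members, all but Adra1a and Chrm1.

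Levels of different genes were compared as CPM per kb of merged exon. In wild-type females Adrb1 had the highest level at 17.5 ± 1.11 CPM per kb (SD, n = 3), followed by Itpr3 at 5.34 ± 0.671, Itpr2 at 4.58 ± 0.551 and Stim1 at 4.52 ± 0.498. The libraries of Itpr3 overlapped those of Itpr2, and those of Itpr2 overlapped those of Stim1, so this part of the order is not fixed by the data. Chrm3 came next at 3.63 ± 0.244 CPM per kb, and Orai1 at 1.36 ± 0.208, Vipr1 at 1.35 ± 0.113, Adra1a at 1.08 ± 0.141 and Chrm1 at 0.462 ± 0.0865 closed the order, with Orai1 and Vipr1 overlapping. The male order was a different one. In wild-type males Adrb1 at 11.6 ± 0.579 and Itpr2 at 9.67 ± 0.340 CPM per kb led, with Stim1 at 7.52 ± 0.361 and Adra1a at 7.06 ± 0.228 overlapping behind them, whereas Chrm1 was again the lowest at 0.383 ± 0.0822. With the longest transcript as the length, Stim1 led both male groups at 17.6 and 15.8 CPM per kb, while Adrb1 still led both female groups at 20.1 and 12.6.

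**Figure D1:**
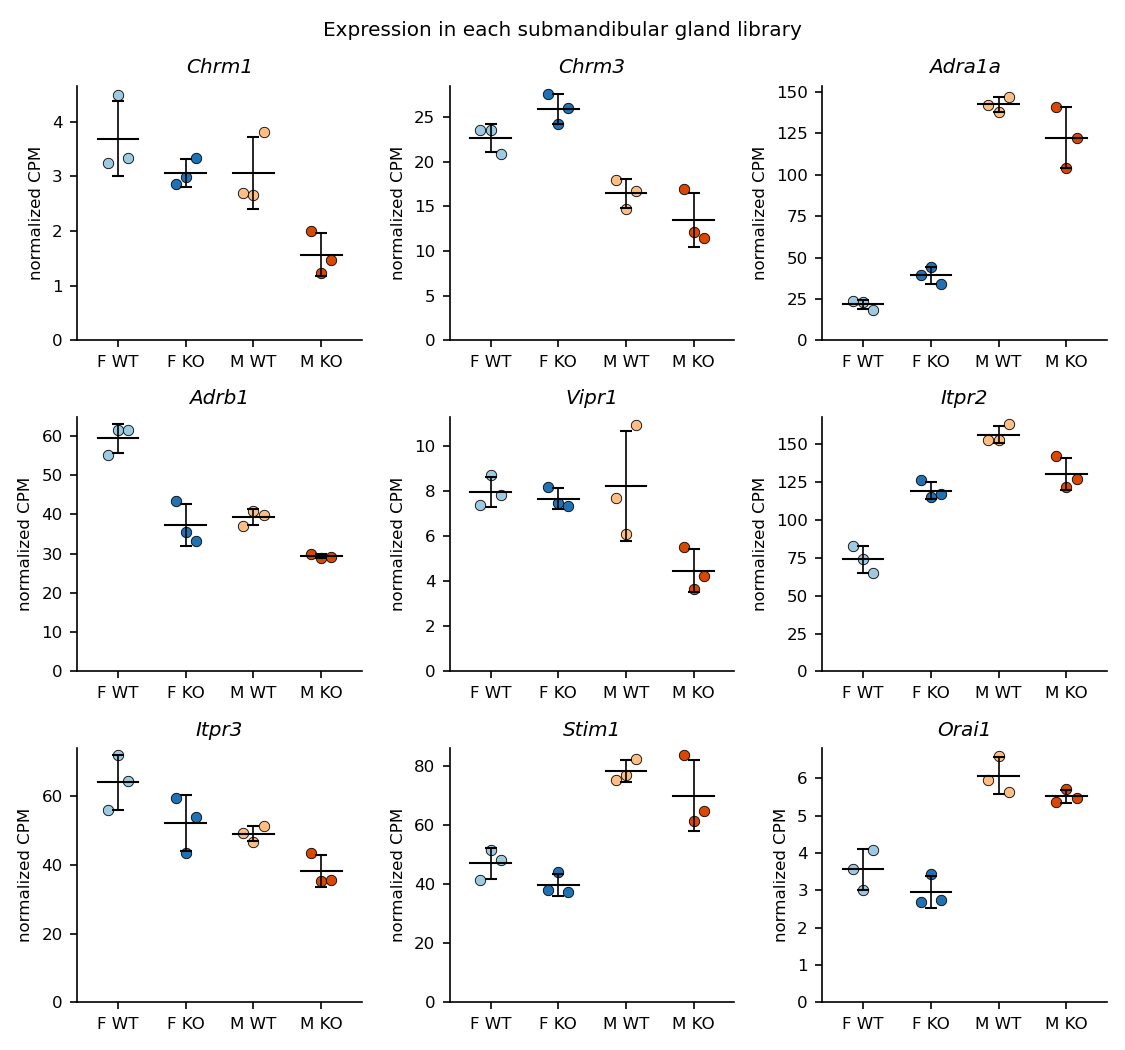
Normalized CPM (vertical axis, linear from 0) of each of the 9 genes in the 3 libraries of each group (F, female; M, male; WT, wild type; KO, knockout), with points for libraries, wide bars for means and error bars for 1 SD. Adra1a stands at 18.6 to 23.8 CPM in wild-type females, 34.3 to 44.0 in knockout females and 104 to 147 in the male libraries of either genotype.

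Differences are given as log2 fold changes with standard errors (SE) from edgeR's quasi-likelihood test, fitted over all 17893 genes that passed the filter. An adjusted p is the Benjamini-Hochberg value over all of them, and a gene with an adjusted p under 0.05 is called up- or down-regulated. In females, 3 of the 9 members passed this test between knockout and wild type: Adra1a and Itpr2 were up-regulated and Adrb1 was down-regulated. That share stands beside 36.9% of all genes tested in this comparison, 17.6% up-regulated and 19.3% down-regulated. In males, 0 of 9 passed, beside 0.235% of all genes (0.101% higher, 0.134% lower). DESeq2 called 3 members there, beside 1.27% of the 30910 genes with any count, a larger set than the 17893 of edgeR. Between the sexes, 7 of 9 differed in wild type, 4 higher and 3 lower in males, beside 36.5% of all genes, 20.5% higher and 16.0% lower. In knockout 8 of 9 differed, 3 higher and 5 lower in males, beside 43.5% of all genes, 23.2% higher and 20.3% lower. The genotype difference itself differed between the sexes for 3 members, Adra1a, Itpr2 and Vipr1, all with the higher value in females, beside 25.7% of all genes, 13.4% in that direction. The comparisons share libraries, so these counts are not independent of one another.

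**Figure D2:**
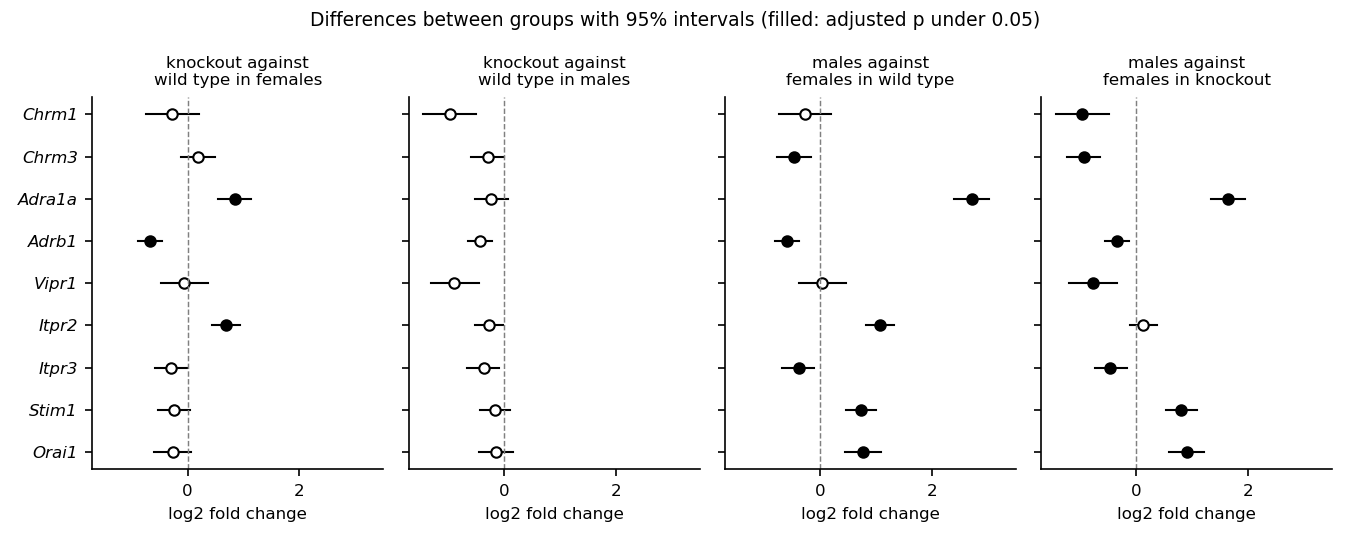
Log2 fold change (horizontal axis) of the 9 genes in 4 comparisons, first group over second, with 95% confidence intervals as lines; filled points have an adjusted p under 0.05. Adra1a sits furthest to the right between wild-type sexes at 2.71, and between the genotypes in females its point is at 0.84, against -0.22 in males.

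Chrm3 encodes the M3 receptor, the main muscarinic receptor of salivary fluid secretion. Normalized CPM of Chrm3 were 23.6, 23.6 and 20.9 for the wild-type females, 27.6, 24.2 and 26.0 for the female knockouts, 18.0, 14.7 and 16.7 for the wild-type males and 17.0, 12.1 and 11.5 for the male knockouts. Every male library of a genotype was below every female library of that genotype. Chrm3 was lower in males by a log2 fold change of -0.46 (SE 0.14, adjusted p = 0.019) in wild type and -0.94 (SE 0.14, adjusted p = 1.7e-04) in knockout, that is, 1.38-fold and 1.92-fold. In wild type the call was lost without wild-type male 2 (-0.39, adjusted p = 0.066) and without both sublingual-marked libraries (-0.47, adjusted p = 0.068). Between genotypes the log2 fold change was 0.19 in females (SE 0.14, adjusted p = 0.3), where the groups did not overlap, and -0.28 in males (SE 0.14, adjusted p = 0.47), where they did. The interaction was 0.48 (adjusted p = 0.087), and it passed with upper-quartile scaling (0.56, adjusted p = 0.047) and without knockout male 1 (0.66, adjusted p = 0.01). Without knockout male 1, whose Chrm3 level was 17.0 CPM against 12.1 and 11.5 in the other knockout males, the male log2 fold change was -0.48 (adjusted p = 0.039). Acinar markers were also lower in males, 7 of 9 called in wild type (median -1.13) and 7 of 9 in knockout (median -0.77). All genes called lower there were 16.0% and 20.3%. The part of acinar markers in the lower male levels of Chrm3 and of other members was not tested.

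Chrm1, the M1 receptor, is the second muscarinic receptor that salivary acinar cells are known to use. In wild-type females the 3 libraries gave 3.25, 4.49 and 3.34 CPM of Chrm1 and in their knockout counterparts 2.86, 2.99 and 3.34 CPM, while wild-type males gave 2.70, 2.67 and 3.82 CPM and male knockouts 2.00, 1.23 and 1.48 CPM. The knockout males were the lowest group, below every other library. Between the sexes of the knockout the log2 fold change was -0.96 (SE 0.22, adjusted p = 0.0037), a level 1.95-fold lower in males; in wild type it was -0.27 (SE 0.22, adjusted p = 0.35) with overlapping groups. With the authors' factors the knockout call was lost (-0.84, adjusted p = 0.057). Between genotypes the log2 fold change was -0.27 in females (SE 0.22, adjusted p = 0.36) and -0.96 in males (SE 0.22), the latter with an unadjusted p of 7.6e-04 and an adjusted p of 0.11. The interaction was 0.69 (SE 0.31, adjusted p = 0.11), and 0.90 without knockout male 1 (adjusted p = 0.045). The male comparison passed with DESeq2 (-0.95, adjusted p = 0.0076), with no low-count filter (adjusted p = 0.025) and without knockout male 1 (-1.17, adjusted p = 0.02). Wild-type male 3, high in sublingual markers, had the highest Chrm1 level of its group at 3.82 CPM, and without both such libraries the male log2 fold change was -0.78 (adjusted p = 0.48). Of the other muscarinic receptors, Chrm2 had 4 to 18 counts in a library, Chrm4 had 1 to 27 and Chrm5 had 0 in all 12, so M3 and M1 accounted for nearly all muscarinic receptor counts.

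Adra1a, the alpha-1A adrenergic receptor, had the widest range of the 9 genes. The female libraries of Adra1a stood at 23.8, 23.1 and 18.6 CPM in wild type and 39.2, 44.0 and 34.3 CPM in knockout, and the male libraries at 142, 138 and 147 CPM in wild type and 141, 104 and 122 CPM in knockout. No female library reached a male one, and in females the genotypes did not overlap either, the knockouts lying above the wild types. Wild-type males stood 6.52-fold above wild-type females (log2 fold change 2.71, SE 0.14, adjusted p = 5.1e-08), and knockout males 3.12-fold above knockout females (1.64, SE 0.14, adjusted p = 2.0e-06). Adra1a was up-regulated in knockout females, 1.80-fold (0.84, SE 0.14, adjusted p = 7.6e-04), while in males the log2 fold change was -0.22 (SE 0.14, adjusted p = 0.58). The difference of these genotype effects was 1.07 (SE 0.19, adjusted p = 0.0045), and it was called under every alternative run, with values from 0.90 to 1.17. Granular convoluted tubule markers were higher in males by a median log2 fold change of 6.48 in wild type. Of these markers 7 of 7 were called higher, beside 20.5% of all genes, and their part in the sex difference was not tested. Between genotypes in females the summed level of those markers overlapped, 971 to 2509 CPM in knockout and 944 to 1679 in wild type. In knockout females 2 of 7 were called higher, beside 17.6% of all genes.

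Adrb1, the beta-1 receptor, is the adrenergic receptor known for protein secretion from salivary acinar cells. Normalized CPM of Adrb1 were 55.0, 61.4 and 61.5 for the wild-type females, 43.3, 35.5 and 33.1 for the female knockouts, 37.1, 40.9 and 39.9 for the wild-type males and 29.9, 28.9 and 29.2 for the male knockouts. Wild-type females were the highest group and knockout males the lowest, and neither overlapped another group. Adrb1 was down-regulated in knockout females, 1.59-fold (log2 fold change -0.67, SE 0.10, adjusted p = 5.0e-04). In males the groups did not overlap, and the log2 fold change was -0.42 (SE 0.10) with an unadjusted p of 0.001 and an adjusted p of 0.12; DESeq2 called it (-0.40, adjusted p = 0.028). The genotype effects of the sexes differed by -0.25 (SE 0.14, 95% interval -0.55 to 0.06, adjusted p = 0.21), and by -0.45 without knockout female 1 (adjusted p = 0.03). Males were lower in wild type (-0.59, SE 0.10, adjusted p = 5.2e-04) and in knockout (-0.35, SE 0.10, adjusted p = 0.014), the latter not without knockout female 1 (-0.17, adjusted p = 0.17) or knockout male 2 (-0.33, adjusted p = 0.051). Of the acinar markers, 5 of 9 were called lower in knockout females (median log2 fold change -0.73), beside 19.3% of all genes. In wild-type males 7 of 9 were called lower (median -1.13), beside 16.0% of all genes. The part of acinar markers in the Adrb1 differences was not tested.

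Vipr1 encodes the VPAC1 receptor for vasoactive intestinal peptide. In wild-type females the 3 libraries gave 7.37, 8.68 and 7.82 CPM of Vipr1 and in their knockout counterparts 8.17, 7.47 and 7.33 CPM, while wild-type males gave 7.66, 6.08 and 10.9 CPM and male knockouts 5.52, 3.65 and 4.24 CPM. Knockout males lay below all other libraries, and the wild-type males spread the widest, up to the 10.9 CPM of the library high in sublingual markers. Vipr1 was lower in males than in females of the knockout (log2 fold change -0.78, SE 0.20, adjusted p = 0.0069), while in wild type the difference was 0.04 (SE 0.19, adjusted p = 0.88). The knockout differed from wild type by -0.06 (SE 0.20, adjusted p = 0.85) among females and by -0.88 among males (SE 0.20, unadjusted p = 6.8e-04, adjusted p = 0.11). The male comparison passed with DESeq2 (-0.86, adjusted p = 0.0061), with no low-count filter (-0.87, adjusted p = 0.0067) and without knockout male 1 (-1.05, adjusted p = 0.02). It was -0.62 (adjusted p = 0.46) without both sublingual-marked libraries. The difference of genotype effects, 0.82 (SE 0.28, adjusted p = 0.046), was close to the threshold. It was called in 8 of 21 alternatives, with values from 0.56 to 1.51, and without both sublingual-marked libraries it was 0.60 (adjusted p = 0.16). Without those libraries the wild-type sex difference was -0.21 (adjusted p = 0.45).

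Itpr2, the type 2 inositol trisphosphate receptor, is a release channel known to be abundant in exocrine acinar cells. The female libraries of Itpr2 stood at 82.7, 74.4 and 64.9 CPM in wild type and 126, 115 and 117 CPM in knockout, and the male libraries at 153, 153 and 163 CPM in wild type and 142, 122 and 127 CPM in knockout. The wild-type females stood alone at the bottom, and the knockout females reached the range of the knockout males. Itpr2 was up-regulated in knockout females, 1.61-fold (log2 fold change 0.68, SE 0.11, adjusted p = 7.7e-04). In males the groups did not overlap and the log2 fold change was -0.26 (SE 0.11, unadjusted p = 0.035, adjusted p = 0.38). The difference of the genotype effects was 0.95 (SE 0.16, adjusted p = 0.0038), called in 21 of 21 alternatives. Wild-type males were 2.11-fold above wild-type females (1.08, SE 0.11, adjusted p = 1.1e-05). In the knockout the sex difference was 0.13 (SE 0.11, 95% interval -0.11 to 0.37, adjusted p = 0.37), and with upper-quartile scaling (-0.03) and with the authors' factors (-0.32) its sign changed. In knockout females the libraries as a whole held more of non-coding and provisional gene models: the median log2 fold change was 0.623 over lncRNAs and 0.905 over the annotation's TEC class of provisional gene models, against -0.0781 over protein-coding genes. The part of this shift in the members' differences was not tested.

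Itpr3, the type 3 channel, works beside Itpr2 at the apical pole of acinar cells. Normalized CPM of Itpr3 were 56.0, 72.0 and 64.3 for the wild-type females, 59.6, 43.5 and 53.9 for the female knockouts, 49.2, 46.8 and 51.3 for the wild-type males and 43.5, 35.3 and 35.7 for the male knockouts. Males were below females in both genotypes without overlap, by a log2 fold change of -0.38 in wild type (SE 0.13, adjusted p = 0.035) and -0.46 in knockout (SE 0.13, adjusted p = 0.013). The knockout groups only just parted. The wild-type call was lost when any of wild-type females 2 or 3 or wild-type males 1, 2 or 3 was left out (-0.42 to -0.32, adjusted p = 0.064 to 0.11), and the knockout call without knockout female 1 or 3 or knockout male 2 or 3 (-0.41 to -0.30, adjusted p = 0.059 to 0.11). Without both sublingual-marked libraries they were -0.42 (adjusted p = 0.083) and -0.43 (adjusted p = 0.058). Between genotypes the log2 fold change was -0.29 in females (SE 0.13, adjusted p = 0.098) and -0.36 among the males (SE 0.13, adjusted p = 0.29). In females it passed without wild-type female 1 (-0.44, adjusted p = 0.02), without knockout female 1 (-0.44, adjusted p = 0.034) and with the authors' factors (-0.38, adjusted p = 0.027). The genotype effects of the sexes differed by 0.07 (SE 0.18, 95% interval -0.33 to 0.47).

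Stim1 encodes the calcium sensor of the endoplasmic reticulum. In wild-type females the 3 libraries gave 41.4, 51.6 and 48.2 CPM of Stim1 and in their knockout counterparts 38.1, 44.1 and 37.3 CPM, while wild-type males gave 75.4, 76.9 and 82.5 CPM and male knockouts 83.8, 61.6 and 64.8 CPM. Every male library was above every female one. The male level was 1.66-fold higher in wild type (log2 fold change 0.73, SE 0.13, adjusted p = 6.5e-04) and 1.76-fold higher in knockout (0.81, SE 0.13, adjusted p = 2.6e-04). The knockout differed from wild type by -0.24 in females (SE 0.13, adjusted p = 0.16) and by -0.16 among males (SE 0.13, adjusted p = 0.69), and the female one passed without wild-type female 1 (-0.39, adjusted p = 0.029).

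Orai1 encodes the pore of the store-operated channel. The female libraries of Orai1 stood at 3.58, 3.01 and 4.09 CPM in wild type and 2.68, 3.44 and 2.74 CPM in knockout, and the male libraries at 5.97, 6.61 and 5.64 CPM in wild type and 5.37, 5.72 and 5.48 CPM in knockout. It was 1.71-fold higher in males in wild type (log2 fold change 0.77, SE 0.15, adjusted p = 0.0013) and 1.87-fold higher in knockout (0.90, SE 0.15, adjusted p = 3.6e-04), again without overlap. In wild type the authors' factors brought this to 0.27 (adjusted p = 0.3). Genotype differences were -0.26 in females (SE 0.15, 95% interval -0.59 to 0.06; -0.44 without knockout female 2, adjusted p = 0.052, and -0.42 without wild-type female 2, adjusted p = 0.063) and -0.14 in males (SE 0.14, 95% interval -0.45 to 0.17). Sensor and pore were both higher in males, in either genotype.

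Ratios of 2 members within a library do not depend on a scaling factor per library, though they do change with the authors' factors, which vary by gene. Itpr2 over Itpr3, in counts per kb of exon, was 0.870 ± 0.196 (SD, n = 3) for the wild-type females and 1.71 ± 0.215 for the female knockouts, against 2.36 ± 0.0598 and 2.54 ± 0.101 for the males. The female genotypes did not overlap, at 0.748 to 1.1 and 1.56 to 1.95, and the order of the 2 genes within wild-type females depends on the length used, since by the longest transcript Itpr2 was at 6.26 and Itpr3 at 5.36 CPM per kb there. Adra1a over Adrb1 was 0.0621 ± 0.0110 for the wild-type females and 0.178 ± 0.0284 for the female knockouts, against 0.609 ± 0.0378 and 0.697 ± 0.0952 for the males, and the female genotypes again did not overlap. Chrm3 over Chrm1 was 8.0 ± 1.28 and 7.05 ± 1.47 in wild-type females and males, and 10.9 ± 1.31 and 11.1 ± 1.31 in the knockouts, with no overlap between the genotypes in either sex. In the authors' normalized table the genotypes did overlap for this ratio, at 7.19 to 9.65 and 9.04 to 13.7 in females and 4.51 to 10.1 and 6.19 to 15.5 in males. Stim1 over Orai1 had group means of 3.20 to 3.41 in the counts, with overlapping libraries, and of 2.77 in wild-type females to 4.04 in wild-type males in the authors' table. The female genotypes stayed apart in that table for Itpr2 over Itpr3, at 0.627 to 1.3 and 1.92 to 2.29, and for Adra1a over Adrb1, at 0.0533 to 0.0688 and 0.146 to 0.201. With 3 mice a group, an exact permutation test of a ratio cannot go below p = 0.1, so the ratios are given as values.

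**Figure D3:**
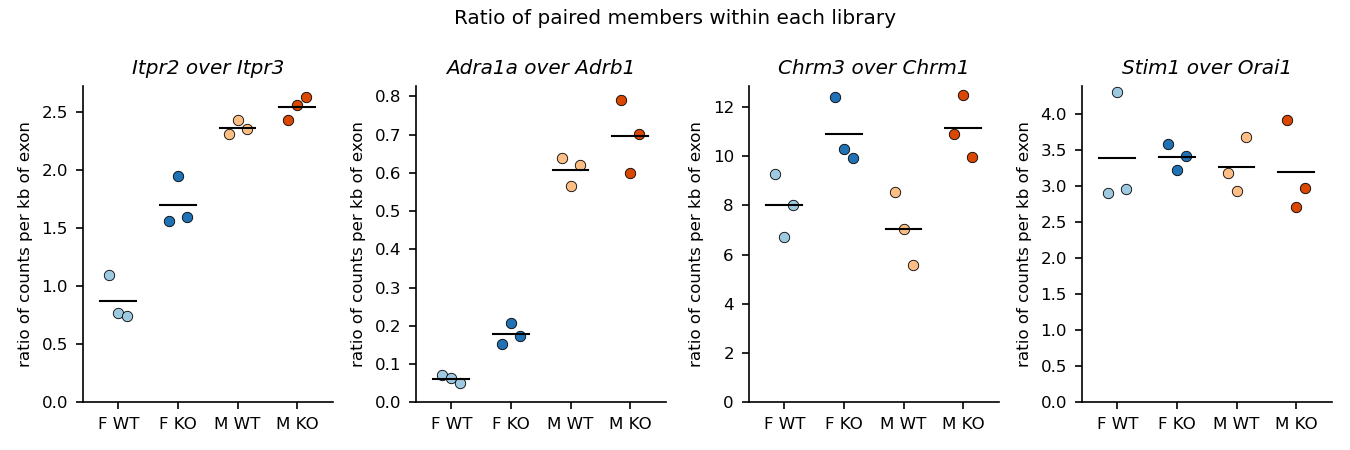
Ratio of counts per kb of merged exon (vertical axis, linear from 0) for 4 pairs of genes within each library, by group, with points for libraries and bars for means. Itpr2 over Itpr3 lies at 0.748 to 1.1 in wild-type females and 1.56 to 1.95 in knockout females, while the libraries of Stim1 over Orai1 overlap between groups.

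The rest of the pathway was read from a list of 107 genes in 10 roles, the 9 members included, of which 95 were tested. Without the members, 86 were tested. In knockout females 13 were up-regulated and 17 down-regulated, 34.9% beside 36.9% of all genes, with a median log2 fold change of -0.02. In knockout males 0 passed edgeR's test in either direction, beside 0.235% of all genes. The median over all genes tested was 0.03 in females and -0.04 in males. In wild type, 14 were higher and 16 lower in males, 34.9% beside 36.5% of all genes, and in knockout 18 were higher and 17 lower, 40.7% beside 43.5%. The genotype effect differed between the sexes for 23 of the 86, 26.7% beside 25.7% of all genes. These shares were near or below those of all genes. Over the whole list of 107, DESeq2 called 6 genes in males, beside 1.27% of the 30910 genes with any count. The fit without knockout male 1 called 8, beside 3.42% of the genes tested in that fit. Leaving out wild-type male 1 or both sublingual-marked libraries lowered the count with a sex-dependent genotype effect from 26 to 17 and to 10. Over all genes tested the same omissions lowered the share from 25.7% to 12.9% and to 6.21%.

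Of 8 genes tested for calcium release, 5 are channels (Itpr1, Itpr2, Itpr3, Ryr2 and Ryr3) and 3 are regulators or partners of the inositol trisphosphate receptors (Irag1, Irag2 and Itprip). In this group 4 of 8, all channels, were up-regulated in knockout females and 0 down-regulated, beside 17.6% and 19.3% of all genes, with a median log2 fold change of 0.43 against 0.03 over all genes. Beside Itpr2 these were Itpr1, the type 1 channel (0.61, adjusted p = 0.0045), and the ryanodine receptors Ryr3 (1.95, adjusted p = 0.038) and Ryr2 (2.04, adjusted p = 0.049). Itpr1 rested on ample counts, with a mean of 73.7 CPM in wild-type and 113 CPM in knockout females, whereas Ryr2 had 2 to 11 and 16 to 31 counts in a library and Ryr3 had 1 to 5 and 10 to 17. The Ryr2 call was lost in 9 of 21 alternatives, with each knockout library of either sex or wild-type female 2 or 3 left out (1.71 to 2.20) and with RLE scaling. That of Ryr3 was lost without knockout female 1 or 3 or wild-type female 1 or 2 (1.51 to 2.03), and without both sublingual-marked libraries (1.56, adjusted p = 0.14). In wild type, 5 of 8, 4 channels and Irag1, were higher and 2, Itpr3 and Irag2, lower in males, beside 20.5% and 16.0% of all genes, with Itpr1 at 0.93 (adjusted p = 2.1e-04) and Ryr3 at 4.19 (adjusted p = 2.1e-04) on the higher side. The calls of both regulators were weak: that of Irag1 (0.48, adjusted p = 0.011) was lost without both sublingual-marked libraries (0.41, adjusted p = 0.069), without wild-type male 3 (0.41) and with the authors' factors (0.01), and that of Irag2 (-1.29, adjusted p = 0.045) in 15 of 22 alternatives, among them without wild-type female 1 (-0.54, adjusted p = 0.32) and without both sublingual-marked libraries (-1.48, adjusted p = 0.078). Wild-type male 3 carried the highest Ryr2 count, 193, and the log2 fold change of Ryr2 was 3.42 with and 2.14 without both sublingual-marked libraries. Myoepithelial markers were also higher in wild-type males, 5 of 5 tested with a median of 1.48, as were the granular convoluted tubule markers, and their part in these differences was not tested.

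Among adrenergic receptors, 2 of 8 tested were up-regulated in knockout females, Adra1a and Adra2c (1.40, adjusted p = 0.019), and Adrb1 was down-regulated. These counts stand beside 17.6% of all genes up-regulated and 19.3% down-regulated. The Adra2c call was lost without knockout female 2 (1.05), wild-type female 2 (1.14) or wild-type female 3 (1.18) and with the authors' factors (1.17). In wild-type males, Adra1d was lower (-1.48, adjusted p = 0.014), though not past the threshold without wild-type female 2 (-1.31, adjusted p = 0.053) or wild-type male 1 (-1.29, adjusted p = 0.061). For Adra2b the highest count was 3.

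Counts of the other roles are small and stand beside the same shares of all genes, 17.6% up-regulated and 19.3% down-regulated in knockout females. In store-operated entry, 2 of 11 tested were up-regulated in knockout females and 4 down-regulated, with a median log2 fold change of -0.26. Up-regulated was Cracr2a, a regulator of the ORAI channel (0.89, adjusted p = 9.4e-04), at a mean of 265 CPM in knockout and 144 CPM in wild-type females. Down-regulated were Saraf, which restrains store-operated entry (-0.79, adjusted p = 7.1e-04) and the sensor Stim2 (-0.59, adjusted p = 0.0018), among others. Cracr2a was also higher in wild-type males, 2.04 on the log2 scale (adjusted p = 7.8e-07), beside Stim1 and Orai1, while Stim2 was lower (-0.50, adjusted p = 0.0042). The genotype effect on Cracr2a differed between the sexes by 1.07 (adjusted p = 0.006), the same direction as for Adra1a and Itpr2.

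The Gq and phospholipase C group split evenly in knockout females, with 3 of 10 up-regulated and 3 down-regulated. The G protein genes Gna11 (-0.69, adjusted p = 4.8e-04) and Gnaq (-0.43, adjusted p = 0.0019) were lower, while the lipase gene Plcg1 (0.72, adjusted p = 5.5e-04) was higher. With the authors' factors Gnaq was at -0.13 (adjusted p = 0.33). In the cAMP branch, 3 of 22 were up-regulated and 6 down-regulated. The subunit genes of protein kinase A Prkar2a (-0.81, adjusted p = 1.3e-04), Prkar1a (-0.54, adjusted p = 8.2e-04) and Prkacb (-0.66, adjusted p = 9.8e-04) were among the lower ones, and the cAMP phosphodiesterase Pde4d (0.72, adjusted p = 0.0017) was among the higher ones. Between wild-type sexes the regulatory subunits moved apart, with Prkar1b higher in males (2.37, adjusted p = 5.9e-06) and Prkar2b lower (-1.57, adjusted p = 1.9e-05).

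Calcium pumps and exchangers gave 0 up-regulated and 2 down-regulated genes of 10 in knockout females, both pumps of the endoplasmic reticulum: Atp2a3 (-0.55, adjusted p = 0.013) and Atp2a2 (-0.44, adjusted p = 0.022). Without both sublingual-marked libraries Atp2a3 was at -0.55 (adjusted p = 0.061), and with upper-quartile scaling Atp2a2 was at -0.34 (adjusted p = 0.06). Receptor desensitization gave 1 up-regulated gene of 9, the receptor kinase Grk3 (0.60, adjusted p = 0.0034), and 2 down-regulated. Among genes of transmitter synthesis and removal, butyrylcholinesterase Bche was lower in wild-type males (-1.67, adjusted p = 6.9e-05). Enzymes that mark the nerves themselves were near 0, with at most 5 counts of Chat, 6 of Th and 3 of Dbh in any library.

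**Figure D4:**
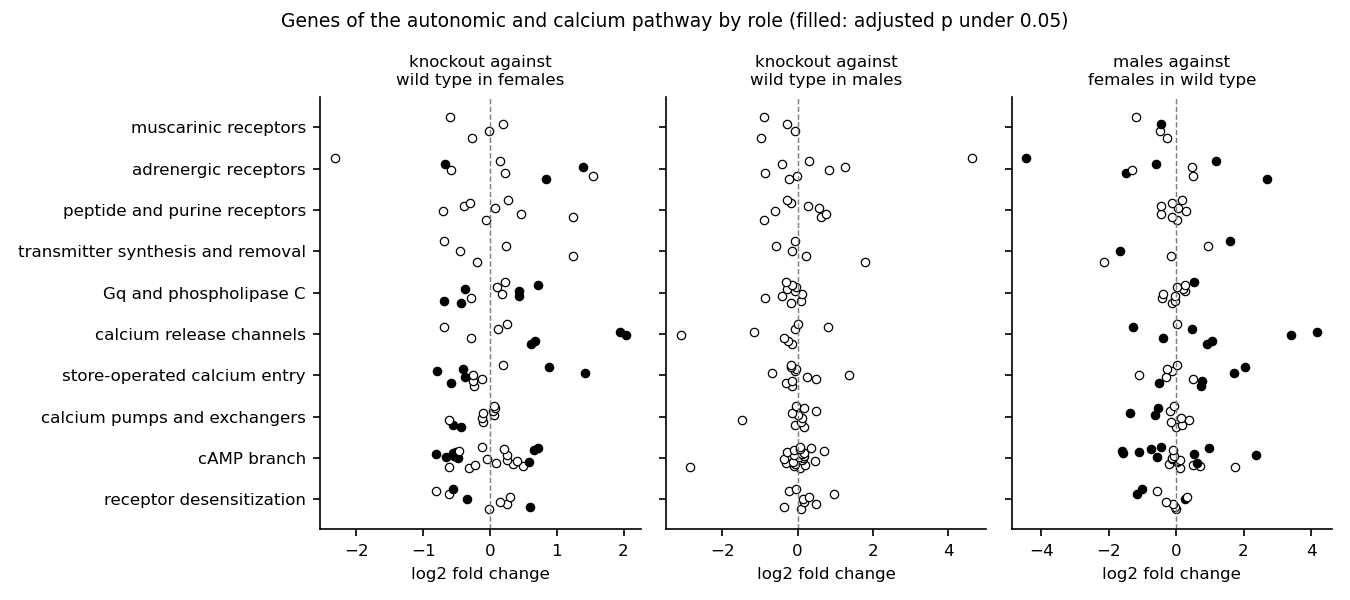
Log2 fold change (horizontal axis, a scale of its own in each panel) of the 95 tested genes of the pathway list, each a point, by role, in 3 comparisons; filled points have an adjusted p under 0.05. In knockout females 15 of the points are filled to the right of 0 and 18 to the left, in males no point is filled, and between wild-type sexes 18 and 19 are.

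For the 4 members with the smallest adjusted p in any comparison, the protein-coding genes with the most similar profile over the 12 libraries were found by the Euclidean distance between scaled log2 CPM, among 14180 genes. Adra1a was nearest to Fam83e at a distance of 0.302, against a median distance of 4.53. Stim1 was nearest to Ctnnd1 at 0.426 and Acp3 at 0.481, and Chrm3 to Nbea at 0.484 and Kndc1 at 0.544, with medians of 4.53 and 4.91. Itpr2 had no partner as close, its nearest being Mical3 at 0.728 and Inpp5j at 0.753, with a median of 4.64. The points share libraries and the sex difference common to many genes of this gland, so the distances are descriptions.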

How the data were processed

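SMGs of 12 mice were sequenced by the authors from stranded libraries depleted of ribosomal RNA. The deposited table holds estimated counts per gene, made by the authors with Salmon 1.10.1 on Gencode M35 transcripts (GRCm39). A second deposited table, per the labels and values a normalized signal, holds the same counts over factors that vary with gene and library, whose origin is not given in the sources used here; it served only as an alternative. Symbols came from Gencode M39, which holds 55563 of the 56065 identifiers; 0 value columns were unmapped.

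Counts were rounded and tested with edgeR 4.0.16 (R 4.3.3): TMM factors (0.625 to 1.45), filterByExpr, a quasi-likelihood fit of 4 group means over 12 libraries, and Benjamini-Hochberg adjustment over 17893 genes at 0.05. Estimated counts could share reads between similar transcripts. The interaction is the genotype difference in females minus that in males. Alternatives covered scaling, filters, DESeq2 1.42.0, a replicate block, fits of the compared groups only, each library left out and, added after seeing the data, both libraries above 1000 CPM of sublingual markers left out. The code was tested on simulated data. The replicates are separate mice, per the study's methods.

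The members and lists were chosen with earlier results of these data known. Named are all members, at most 4 called genes per list group and comparison by adjusted p, receptors and transmitter genes near 0, and the 2 most similar genes for 4 members; some results under this rule are not reported here. Intervals are 95%, and the depth of 47032175 to 67882207 counts covers counting error only.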

Additional observations from a re-analysis of the deposited data

Results flagged for a closer look

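For 3 members the genotype difference in females differed from that in males by the interaction test of edgeR. The difference, females minus males on the log2 scale, was 1.07 for Adra1a (adjusted p = 0.0045), 0.95 for Itpr2 (adjusted p = 0.0038) and 0.82 for Vipr1 (adjusted p = 0.046). Adra1a and Itpr2 were higher in all 3 knockout females than in any wild-type female, and Vipr1 was lower in all 3 knockout males than in any wild-type male. The Vipr1 value was 0.60 (adjusted p = 0.16) without both libraries high in sublingual markers.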

How the results depend on the processing

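Of the called differences of members, 230 fits with 1 library left out kept the call and 22 lost it, and under the other settings 199 kept it and 8 lost it; none changed sign. Signs changed only for differences that were not called. For Vipr1 between genotypes in females the value was 0.05 with upper-quartile scaling, 0.01 with library sizes from protein-coding genes and 0.44 with the authors' factors, and between wild-type sexes it was -0.03 with upper-quartile scaling, -0.21 without both sublingual-marked libraries and -0.21 to 0.22 with 1 library left out. Itpr2 between knockout sexes was -0.03 with upper-quartile scaling and -0.32 with the authors' factors, which also gave 0.04 for Orai1 between genotypes in males and -0.08 and 0.03 for the interactions of Itpr3 and Stim1. With 1 library left out these interactions ran from -0.11 to 0.17 and from -0.26 to 0.06. The cause of these changes was not tested. Upper-quartile scaling put the median of all genes at 0.13 in females between genotypes, against 0.03, and at -0.18 between knockout sexes, against -0.02.

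Between genotypes in males, no low-count filter gave 2 members and 5 list genes called and DESeq2 gave 3 and 6, against 0 and 0. The share of genes called was 1.26% and 1.27% of the 30910 genes with any count, against 0.235% of the 17893 that passed the filter. With 1 library left out, the members called ran from 0 to 3 and the list genes from 0 to 8 in that comparison, the members called from 2 to 5 and the list genes from 17 to 31 for the interaction, and the members called from 3 to 5 between genotypes in females. Under the same omissions the share of all genes called ran from 0.0702% to 3.42%, from 12.9% to 30.2% and from 26.5% to 38.4% in these comparisons. Without both sublingual-marked libraries 10 list genes had an interaction, against 26, as the share of all genes fell from 25.7% to 6.21%. The numbers of the replicates did not pair the mice. For this, each gene's group mean was subtracted from its log2 CPM. The remaining deviations of same-numbered knockout and wild-type libraries correlated at -0.11 to 0.05 in females and -0.13 to 0.09 in males. A fit with the replicate block gave 3, 0, 3, 7 and 8 members called, as without it, but the Chrm3 interaction passed (0.48, adjusted p = 0.049, against 0.087) and that of Vipr1 did not (0.81, adjusted p = 0.056). With 3 mice a group, SEs of the members' pairwise log2 fold changes were 0.10 to 0.22, and Chrm1 and Vipr1 had the largest.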
